A study of Mus musculus with 6 samples.

Results

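Collagens are secreted proteins made of chains wound into trimers, and they form most of the scaffold outside cells. The genes described here were all those with a symbol of the form Col, number, a, number in the authors' gene tables, which gave 42 of 21674 genes. They were sorted by textbook class into 11 fibrillar, 8 basement membrane and 23 other collagen genes. Of these, 31 passed the filter on low counts (10 fibrillar, 7 basement membrane and 14 other) and 11 did not. In all, 30 reached 1 TPM in at least 1 library, 18 reached 10 TPM, and Col9a1 was listed at 0 in every library. TPM is a level scaled to transcript length and to the library, so levels of different genes can be set side by side.

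RNA was sequenced from a mouse aortic cell line that the labels call endothelial, immortalised with a TetOn-SV40 construct, expanded with doxycycline and then plated without it. The genotypes were a CRISPR knockout of Ptbp1 (KO), which the series design describes as a single-cell clone, that knockout with a human PTBP1 cDNA added (Rescue), and the line without either (WT). Ptbp1 encodes a splicing repressor. Every genotype was sequenced once with TNF (30 ng/mL) and once without, which makes 6 groups of 1 library and no replicates. The libraries held 19582761 to 21609245 expected counts (RSEM's estimated reads per gene).

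File names of 4 of the 6 libraries read another group than the label. The KO-named pair was labelled WT_TNF (named with TNF) and Rescue (named without). The rescue-named pair was labelled Rescue_TNF (with TNF) and KO_TNF (without). The WT-named pair, whose files read basal, was labelled KO (with TNF) and WT (without). Ptbp2, a paralogue that Ptbp1 normally keeps low, was at 106 and 128 TPM in the libraries labelled WT_TNF and Rescue, at 45.3 and 42.2 TPM in those labelled Rescue_TNF and KO_TNF, and at 20.7 and 22.8 TPM in those labelled KO and WT. Ccl2, a chemokine that TNF induces, was at 1138, 5202 and 6017 TPM in the libraries named with TNF, labelled WT_TNF, Rescue_TNF and KO. It was at 105, 169 and 149 TPM in those named without TNF, labelled Rescue, KO_TNF and WT. Both genes therefore went against the labels and followed the file names. Ptbp1 RNA itself was at 275 TPM with TNF and 266 TPM without in the KO-named pair, 129 and 127 TPM in the rescue-named pair, and 270 and 236 TPM in the WT-named pair, so it was not lower in the KO-named pair than in the WT-named pair. Below, "named" refers to the file names and "labelled" to the labels.

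Of 12 endothelial markers, 9 were below 1 TPM in every library, among them Pecam1, Cdh5 and Kdr, and Cldn5 was listed at 0 in all. Eng was at 147 to 200 TPM, Egfl7 at 1.97 to 12.8 TPM and Erg at 0.09 to 1.05 TPM. The smooth muscle and myofibroblast gene Acta2 was at 709 to 1561 TPM and Pdgfrb, of fibroblasts and mural cells, at 110 to 212 TPM. Other markers of smooth muscle and fibroblasts were low, with Myh11 at most 0.30 TPM, Myocd at most 0.07 TPM and Fap at most 0.17 TPM. Of the blood cell genes, Ptprc was listed at 0 and Csf1r was at most 0.72 TPM, whereas Cd68 was at 10.3 to 29.3 TPM. The endothelial label was thus not borne out by these markers. In bulk RNA, fewer cells of a type and less RNA per cell cannot be told apart.

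Fibrillar collagens I, III, V and XI build the banded fibres that give arteries their tensile strength, and the minor chains of types V and XI set the width of those fibres. Type IV chains form the network of the basement membrane that lies under endothelium and around smooth muscle, and collagens XV and XVIII are proteoglycans of that layer, the end of type XVIII being released as endostatin. Among the others, type VI makes beaded microfibrils, type VIII a short-chain network of vessel walls, and types IX, XII, XIV and XVI sit on the surface of fibrils.

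Collagen RNA was abundant and mostly fibrillar. Summed over the 42 genes it was 7936 TPM with TNF and 12077 TPM without in the KO-named pair, 5602 and 12230 TPM in the rescue-named pair, and 6482 and 12950 TPM in the WT-named pair. The sum with TNF was thus 65.7%, 45.8% and 50.1% of the sum without it in the KO-, rescue- and WT-named pairs. All 3 libraries named with TNF lay below all 3 named without. Col6a3 and Col26a1 are not among the 42 genes, so the sums and shares leave them out. In the authors' second quantification Col6a3 was at 52.9 to 201 TPM and Col26a1 at 0.0 TPM in every library. Fibrillar genes made up 77.4% to 85.5% of the sum, basement membrane genes 2.98% to 5.97% and the other genes 11.5% to 16.7%, and type I alone was 68.3% to 74.1%. Collagen genes took 1.51% to 3.36% of all expected counts. The fibrillar sum with TNF was 64.5%, 43.6% and 47.9% of that without in the KO-, rescue- and WT-named pairs. The basement membrane sum was 97.2%, 62.0% and 85.8%, but it mixes falls with the rise of Col18a1. Col18a1 was 103 of 444 TPM with TNF and 62.8 of 457 TPM without in the KO-named pair. It was 27.3 of 334 and 13.6 of 539 TPM in the rescue-named pair, and 181 of 331 and 91.6 of 386 TPM in the WT-named pair. The log2 ratios of Col4a1 were -0.10, -0.66 and -0.82 in the KO-, rescue- and WT-named pairs, and those of Col4a2 were -0.06, -0.76 and -1.04.

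**Figure D1:**
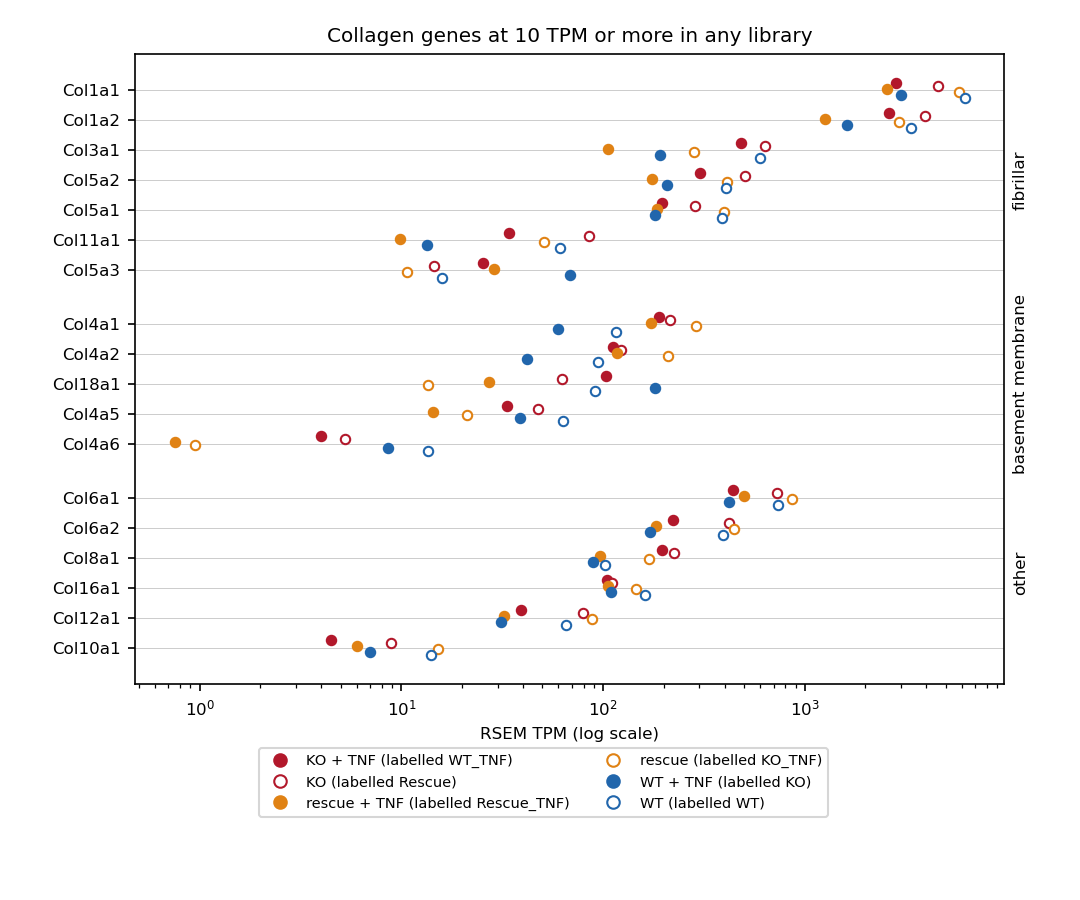
RSEM TPM (log scale) of the 18 collagen genes at 10 TPM or more in any library, by class; each point is 1 library, filled where the file name reads TNF. Filled points lie left of open ones of the same colour for the fibrillar genes except Col5a3; Col4a6 runs from 0.75 to 13.5 TPM.

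The first comparison asked how TNF changed collagen RNA over the 3 lines. With the groups the file names read, 13 of the 31 collagen genes tested (41.9%) fell with TNF, where 10.8% of all 12728 genes tested did, and 3 (9.7%) rose, where 11.2% of all genes did. The median log2 change was -0.50 for the collagen genes and -0.01 for all genes. Fibrillar genes had 6 falls and 1 rise of 10 tested (median -0.85), basement membrane genes 2 falls and 1 rise of 7 (median -0.50), and the other genes 5 falls and 1 rise of 14 (median -0.29). Calls are edgeR quasi-likelihood tests at an adjusted p under 0.05 from a model of line plus TNF. Without replicate cultures, its error is the unevenness of an effect from line to line.

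Type I collagen, the main fibre of the artery wall, fell in both of its chains. Col1a1 (chr11:94936224-94953042) was at 2822 TPM with TNF and 4554 TPM without in the KO-named pair, 2569 and 5843 TPM in the rescue-named pair, and 3010 and 6220 TPM in the WT-named pair. Col1a2 (chr6:4504814-4541544) was at 2606 and 3955 TPM, 1254 and 2948 TPM, and 1625 and 3369 TPM in the same order of pairs and treatment. For both chains every library named with TNF lay below every library named without. The fitted log2 changes were -0.88 ± 0.12 for Col1a1 (edgeR adjusted p = 0.0146) and -0.87 ± 0.14 for Col1a2 (edgeR adjusted p = 0.0198), where the value after ± is an SE derived from the test.

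Col3a1, the chain of the more elastic type III fibrils, was at 485 TPM with TNF and 635 TPM without in the KO-named pair, 106 and 283 TPM in the rescue-named pair, and 192 and 597 TPM in the WT-named pair. The treatments overlapped for Col3a1, because the KO-named library with TNF lay above the rescue-named one without. Its log2 change was -1.05 ± 0.25 (edgeR adjusted p = 0.0426; 0.0859 by DESeq2, which ends the call). Col11a1, a chain of type XI that nucleates fibrils, had the largest fibrillar change of those called, at -1.86 ± 0.22 (edgeR adjusted p = 0.0115). It was at 34.2 and 84.7 TPM in the KO-named pair, 9.84 and 51.0 TPM in the rescue-named pair, and 13.4 and 61.4 TPM in the WT-named pair, with no overlap between treatments.

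The type V chains, which regulate fibril width, split by chain. Col5a1 was at 195 TPM with TNF and 284 TPM without in the KO-named pair, 184 and 397 TPM in the rescue-named pair, and 181 and 389 TPM in the WT-named pair. Col5a2 was at 301 and 503 TPM, 174 and 410 TPM, and 206 and 409 TPM in the same order. Both fell, by 0.82 ± 0.13 on the log2 scale for Col5a1 (edgeR adjusted p = 0.0191) and by 0.89 ± 0.11 for Col5a2 (edgeR adjusted p = 0.0122). Col5a3, the third type V chain, moved the other way. It was at 25.4 TPM with TNF and 14.5 TPM without in the KO-named pair, 28.6 and 10.6 TPM in the rescue-named pair, and 68.2 and 15.9 TPM in the WT-named pair. Its log2 change was 1.54 ± 0.26 (edgeR adjusted p = 0.0211), and every library named with TNF lay above every library named without.

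Col3a1 and Col5a3 are shown by the 150 bases before their RefSeq start (GRCm38.p6) because they are fibrillar chains that moved in opposite directions with TNF. Col18a1 is shown in the same way because it rose with TNF and because its start use, described further on, differed between libraries. Capitals mark TATAAA or CCAAT on either strand.
Col3a1, chr1:45311388-45311537, plus strand: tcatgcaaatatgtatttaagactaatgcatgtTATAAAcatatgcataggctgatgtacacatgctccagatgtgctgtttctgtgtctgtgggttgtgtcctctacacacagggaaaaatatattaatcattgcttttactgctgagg
Col5a3, chr9:20815068-20815217, minus strand: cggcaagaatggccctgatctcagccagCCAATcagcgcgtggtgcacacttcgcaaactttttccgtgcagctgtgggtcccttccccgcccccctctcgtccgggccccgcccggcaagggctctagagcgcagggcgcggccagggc
Col18a1, chr10:77166531-77166680, minus strand: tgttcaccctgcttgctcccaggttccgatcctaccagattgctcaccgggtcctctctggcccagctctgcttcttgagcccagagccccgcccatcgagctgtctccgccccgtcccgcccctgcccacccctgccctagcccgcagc
The Col3a1 window holds TATAAA and the Col5a3 window CCAAT, and the Col18a1 window holds neither. In the 250 bases before the start, searched on both strands, TATAAA was in 5 of the 34 collagen promoters that the RefSeq table matched, against 12.97% of all 27025 promoters. CCAAT was in 12 of 34, against 34.5% of all, and the NF-kB consensus was in 4 of 34 (Col27a1, Col4a2, Col6a4 and Col9a2), against 7.01% of all. Of the 3 genes that rose, Col5a3 and Col18a1 were searched and did not hold the NF-kB consensus. For Col18a1 this covers only the bases before its upstream start, and those before its middle and inner starts were not searched. Col9a3, which also rose, was not among the promoters searched. A link between this motif and the TNF changes was not tested.

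Type IV chains Col4a5 and Col4a6 fell by a small amount. Col4a5 was at 33.5 TPM with TNF and 47.8 TPM without in the KO-named pair, 14.3 and 21.2 TPM in the rescue-named pair, and 38.9 and 63.3 TPM in the WT-named pair (log2 change -0.50 ± 0.06, edgeR adjusted p = 0.0116). Col4a6 was at 4.01 and 5.28 TPM, 0.75 and 0.95 TPM, and 8.56 and 13.5 TPM in the same order (-0.40 ± 0.10, edgeR adjusted p = 0.0455; 0.0925 by DESeq2 and 0.123 with the second quantification). For both genes the rescue-named libraries lay below the other 4. The major chains Col4a1 and Col4a2 did not pass the test for TNF. Col4a1 was at 190 and 215 TPM in the KO-named pair, 174 and 289 TPM in the rescue-named pair, and 60.1 and 116 TPM in the WT-named pair (-0.53 ± 0.15, edgeR adjusted p = 0.0647). Col4a2 was at 112 and 123 TPM, 117 and 209 TPM, and 41.8 and 93.8 TPM in the same order (-0.62 ± 0.19, edgeR adjusted p = 0.0781).

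Col18a1, the precursor of endostatin, was the basement membrane gene that rose. It was at 103 TPM with TNF and 62.8 TPM without in the KO-named pair, 27.3 and 13.6 TPM in the rescue-named pair, and 181 and 91.6 TPM in the WT-named pair, higher with TNF in every pair (log2 change 0.97 ± 0.08, edgeR adjusted p = 0.00851). Col15a1, its close relative, was at 1.92 and 2.63 TPM, 1.07 and 4.17 TPM, and 0.94 and 7.67 TPM in the same order. Its log2 change of -1.71 ± 0.49 missed the threshold (edgeR adjusted p = 0.0648), and the ratio within pairs ran from -0.37 in the KO-named pair to -2.86 in the WT-named pair.

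Of the other collagens, the type VI chains Col6a1 and Col6a2 fell. Col6a1 was at 443 TPM with TNF and 731 TPM without in the KO-named pair, 500 and 869 TPM in the rescue-named pair, and 422 and 735 TPM in the WT-named pair (log2 change -0.68 ± 0.06, edgeR adjusted p = 0.00855). Col6a2 was at 223 and 420 TPM, 183 and 446 TPM, and 170 and 394 TPM in the same order (-1.04 ± 0.09, edgeR adjusted p = 0.00851). Neither gene's treatments overlapped. Col6a3, the third chain of the main type VI trimer, was read from the authors' second quantification, where it was at 201 and 163 TPM in the KO-named pair, 81.8 and 160 TPM in the rescue-named pair, and 52.9 and 107 TPM in the WT-named pair. On that scale it was lower with TNF in the rescue- and WT-named pairs and higher with TNF in the KO-named pair. The same quantification gave Col6a1 at 341 and 554 TPM in the KO-named pair. Col6a4, a further type VI chain at 0.21 to 2.88 TPM, had a log2 change of 1.69 that was not called (edgeR adjusted p = 0.0658).

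Col12a1, a fibril-associated collagen, was at 39.2 TPM with TNF and 79.1 TPM without in the KO-named pair, 32.2 and 88.2 TPM in the rescue-named pair, and 31.2 and 65.5 TPM in the WT-named pair (log2 change -1.09 ± 0.11, edgeR adjusted p = 0.00966). Col10a1, a short-chain collagen best known from growth plate cartilage, was at 4.48 and 8.84 TPM, 6.05 and 15.2 TPM, and 7.01 and 14.0 TPM in the same order (-1.01 ± 0.12, edgeR adjusted p = 0.011). For both genes the treatments did not overlap. Col14a1, fibril-associated and at most 1.64 TPM, fell by 1.55 ± 0.37 on the log2 scale (edgeR adjusted p = 0.0438; 0.0657 by DESeq2 and 0.15 with the second quantification, where the change was -1.14). Col9a3, a chain of a fibril-associated collagen of cartilage, rose by 0.76 ± 0.13 (edgeR adjusted p = 0.0233) at 2.06 to 5.72 TPM.

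Col8a1, of the vessel wall, and Col16a1, fibril-associated, did not pass the test for TNF. Col8a1 was at 196 TPM with TNF and 225 TPM without in the KO-named pair, 96.8 and 168 TPM in the rescue-named pair, and 89.5 and 102 TPM in the WT-named pair (-0.30 ± 0.14, edgeR adjusted p = 0.181). Col16a1 was at 104 and 111 TPM, 105 and 145 TPM, and 110 and 162 TPM in the same order (-0.28 ± 0.10, edgeR adjusted p = 0.11). The remaining 10 genes tested and not called (Col2a1, Col4a3, Col6a4, Col7a1, Col11a2, Col17a1, Col20a1, Col22a1, Col23a1 and Col27a1) were at 0.03 to 6.45 TPM.

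**Figure D2:**
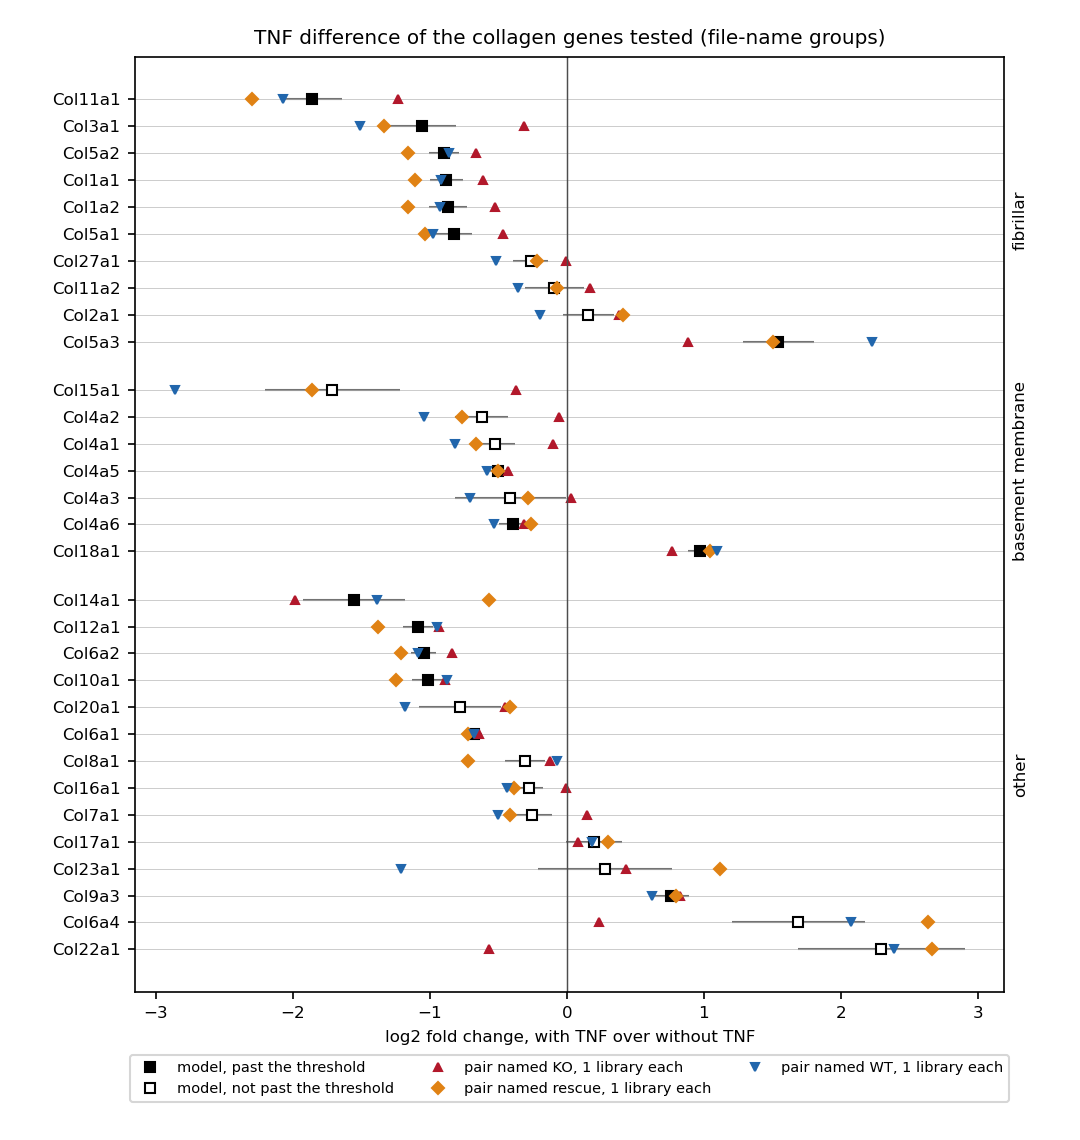
log2 fold change with TNF over without TNF for the 31 collagen genes tested, by class; squares are the model estimate with its SE, filled where the adjusted p was under 0.05, and coloured symbols are the ratio within each pair of 1 library each. Col11a1 (-1.86) and Col5a3 (1.54) mark the ends of the called fibrillar genes.

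Within single pairs the ratios carry no test. At least 2-fold lower with TNF were 2 of the 31 collagen genes in the KO-named pair, where 3.91% of all genes were, 10 in the rescue-named pair, where 4.45% were, and 8 in the WT-named pair, where 6.13% were. At least 2-fold higher were 0, 5 and 4 collagen genes in the KO-, rescue- and WT-named pairs, where 2.73%, 4.42% and 5.74% of all genes were. The median log2 ratio of the collagen genes was -0.31 in the KO-named pair, -0.50 in the rescue-named pair and -0.71 in the WT-named pair. For Col1a1, Col1a2, Col3a1, Col5a1, Col5a2 and Col11a1 alike the ratio nearest to 0 was that of the KO-named pair, from -0.31 for Col3a1 to -1.23 for Col11a1. The same held for Col5a3, at 0.89 in the KO-named pair against 1.502 in the rescue-named pair and 2.23 in the WT-named pair. Of the other genes called for TNF, Col4a5, Col6a1, Col6a2, Col12a1 and Col18a1 followed this order, and Col4a6, Col9a3, Col10a1 and Col14a1 did not. This is not particular to collagen genes, because the shares of all genes at 2-fold given above were also lowest in the KO-named pair. Whether the lines differ in the TNF response could not be tested with 1 library per line and treatment.

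The number of TNF calls depended most on the rescue-named pair, for all genes as for collagen genes. Each fit without 1 library has 1 residual degree of freedom. The line term then fits the remaining library of that pair exactly, so the TNF effect and the error come from the other pairs. Leaving out either library of the same pair is therefore not a separate check. The median collagen log2 change was -0.50 with all libraries. It was -0.42 and -0.46 without the libraries labelled WT and KO, and -0.73 and -0.74 without those labelled Rescue and WT_TNF. Without the library labelled KO_TNF, and likewise without the one labelled Rescue_TNF, 0 collagen genes and 3 genes of all were called, with 1 residual degree of freedom left, and the median collagen log2 change was then -0.53 and -0.55. Leaving out a library of the WT-named pair left 9 (labelled KO) or 10 (labelled WT) collagen genes called, and leaving out one of the KO-named pair gave 25 (labelled WT_TNF) or 24 (labelled Rescue). The 7 listed smooth muscle markers summed to 1175, 946 and 1047 TPM in the libraries named KO, rescue and WT with TNF, against 1711, 1882 and 1566 TPM in those without TNF. Of them Myh11 and Myocd were at most 0.30 TPM in any library. The 7 fibroblast markers summed to 184, 213 and 358 TPM in the libraries named KO, rescue and WT with TNF, against 281, 294 and 431 TPM in those without. Dcn, a fibroblast proteoglycan that binds collagen, was at 4.29, 42.8 and 75.4 TPM with TNF, against 0.46, 3.09 and 3.15 TPM without. The part of these markers in the collagen result was not tested.

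With the labels' groups in place of the file names', 0 of 31 collagen genes were called for TNF, where 0.0% of all 12728 genes were (lowest collagen edgeR adjusted p = 0.999). At an unadjusted p under 0.05 there were 491 genes of all for TNF, and DESeq2 called 93, among them 2 collagen genes. For the labelled lines (KO over WT, Rescue over KO, Rescue over WT) edgeR called 0 collagen genes as well, at 0.0%, 0.0% and 0.0% of all genes. There 29, 27 and 91 genes of all had an unadjusted p under 0.05, and DESeq2 called 0, 3 and 9 genes, with 0 collagen genes among them. The median TNF log2 ratio of the collagen genes was 0.50 in the pair labelled KO, -0.57 in the pair labelled Rescue and -0.62 in the pair labelled WT.

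The next comparison asked how the KO-named pair (labelled WT_TNF and Rescue) differed from the WT-named pair (labelled KO and WT). Basement membrane genes had 5 calls of 7, with Col4a1 and Col4a2 higher and Col4a5, Col4a6 and Col18a1 lower. Over all classes 4 of 31 collagen genes were higher (12.9%), where 16.8% of all genes tested were, and 8 were lower (25.8%), where 16.2% of all were. The median log2 difference was -0.26, against 0.00 over all genes. The collagen share of higher calls was thus near that of all genes.

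Col4a1 and Col4a2, whose genes lie head to head on chromosome 8 and overlap by 22 bases at their starts, were both higher. By the TPM given above, the KO-named pair was at 190 and 215 TPM for Col4a1 against 60.1 and 116 TPM in the WT-named pair, with no overlap. The log2 difference was 1.29 ± 0.19 for Col4a1 (edgeR adjusted p = 0.00977) and 0.92 ± 0.24 for Col4a2 (edgeR adjusted p = 0.0409). Strand of the counting is not given in the sources used here, so reads of the 22 shared bases cannot be assigned with certainty.

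Col4a6 and Col4a5 lie head to head on the X chromosome, 1308 bases apart, and both were lower. The log2 difference was -1.22 ± 0.11 for Col4a6 (edgeR adjusted p = 0.00365) and -0.30 ± 0.07 for Col4a5 (edgeR adjusted p = 0.0339). Col18a1 was lower by a log2 difference of -0.68 ± 0.10 (edgeR adjusted p = 0.0107).

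Among fibrillar genes Col11a1 was higher in the KO-named pair (0.94 ± 0.26, edgeR adjusted p = 0.0485; 0.0511 with DESeq2 size factors and 0.0522 with the second quantification), and Col2a1 and Col27a1 were lower. Col2a1, the main fibril chain of cartilage, was at 0.75 and 0.59 TPM in the KO-named pair, 2.09 and 1.67 TPM in the rescue-named pair, and 3.75 and 4.74 TPM in the WT-named pair (log2 difference of KO and WT -2.64 ± 0.24, edgeR adjusted p = 0.00362). Col27a1, a fibrillar chain of cartilage, was at 1.76 and 1.87 TPM, 4.36 and 5.35 TPM, and 4.12 and 6.45 TPM in the same order (-1.51 ± 0.16, edgeR adjusted p = 0.00497). Neither gene overlapped between the KO- and WT-named pairs. Type I did not pass, at -0.26 ± 0.15 for Col1a1 (edgeR adjusted p = 0.223) and 0.47 ± 0.17 for Col1a2 (edgeR adjusted p = 0.0892).

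Of the other collagens, Col8a1 was higher in the KO-named pair (1.14 ± 0.18, edgeR adjusted p = 0.0115) and 3 were lower. Col10a1 was lower by a log2 difference of -0.65 ± 0.14 (edgeR adjusted p = 0.0262). Col14a1 was at 0.03 and 0.20 TPM in the KO-named pair against 0.56 and 1.64 TPM in the WT-named pair (-3.29 ± 0.42, edgeR adjusted p = 0.00753). Col22a1, a fibril-associated chain, was at 0.03 and 0.06 TPM against 1.20 and 0.23 TPM (-3.77 ± 0.85, edgeR adjusted p = 0.0281). Both stand on few reads, and the second quantification gave -7.57 for Col14a1. Without the library labelled WT_TNF the difference was -1.68 for Col22a1, which ended its call, 0.44 for Col11a1 and 0.49 for Col4a2.

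Without the library labelled KO_TNF or the one labelled Rescue_TNF, 5 of the 12 calls of KO against WT remained, those of Col2a1, Col4a6, Col8a1, Col14a1 and Col27a1. Without the libraries labelled KO and WT in turn, 6 and 9 calls were made. The 7 fibroblast markers summed to 184 and 281 TPM in the KO-named pair, 213 and 294 TPM in the rescue-named pair, and 358 and 431 TPM in the WT-named pair. Thy1 was at most 0.24 TPM in the KO- and rescue-named libraries, against 41.5 and 77.2 TPM in the WT-named pair. Pdgfra was at 18.3 to 21.1 TPM in the KO- and rescue-named libraries, against 110 and 136 TPM in the WT-named pair. Other markers of that list did not follow this order: Pdgfrb was at 136 and 204 TPM in the KO-named pair and 112 and 212 TPM in the rescue-named pair, against 110 and 171 TPM in the WT-named pair. Postn was at 25.6 and 58.1 TPM and at 25.8 and 54.3 TPM, against 18.0 and 42.8 TPM. The smooth muscle gene Cnn1 was at 0.10 and 0.64 TPM in the rescue-named pair against 12.7 to 34.6 TPM elsewhere, whereas Acta2 was at 738 and 1561 TPM in the rescue-named pair against 709 and 913 TPM in the WT-named pair. The part of these markers in the differences between lines was not tested.

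**Figure D3:**
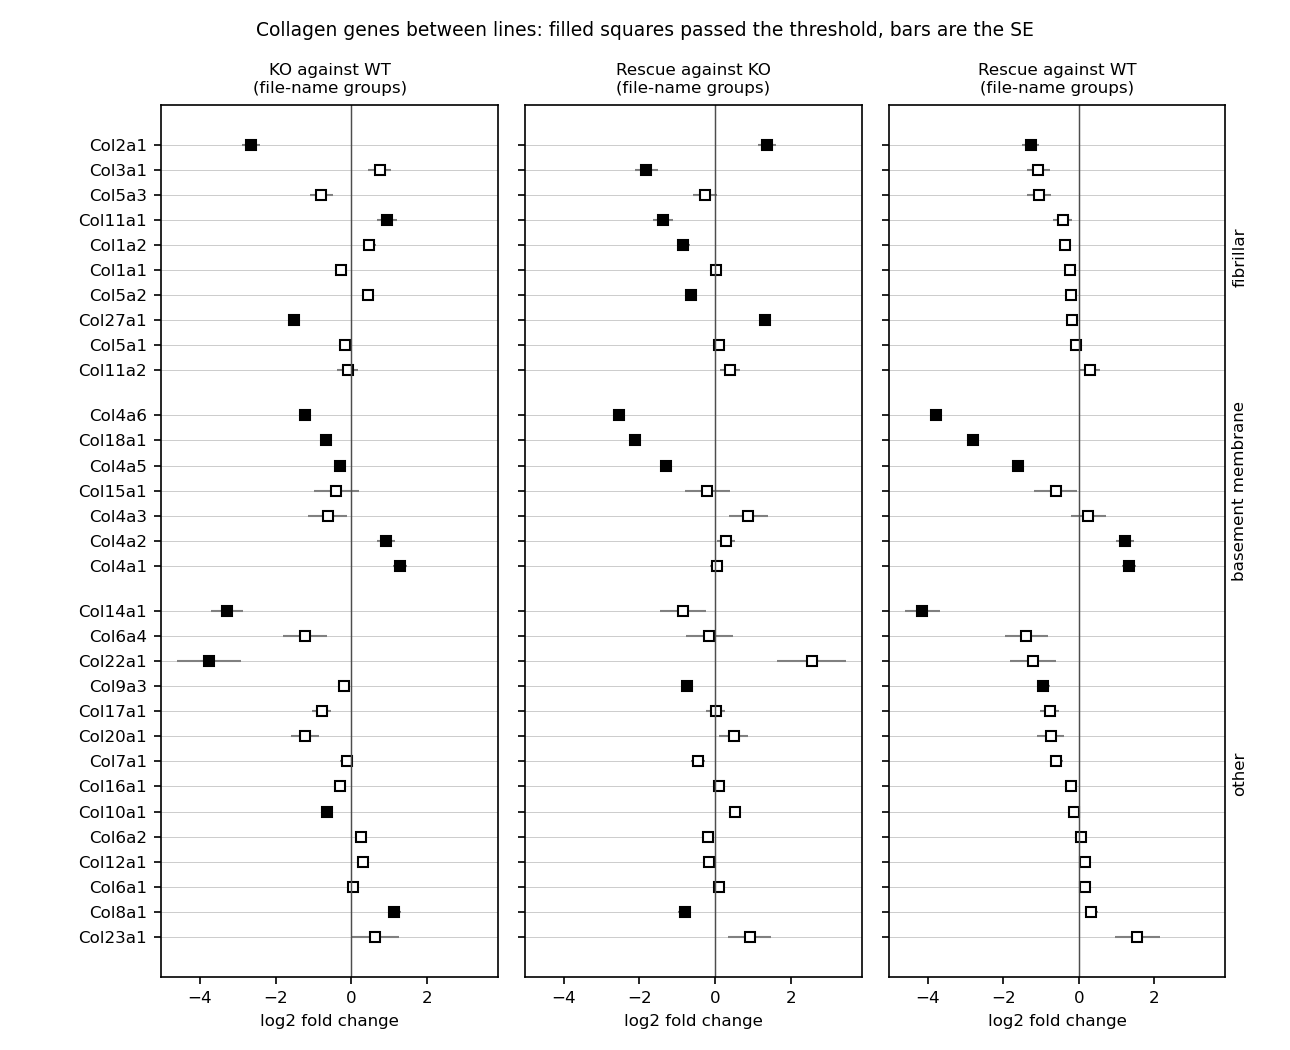
log2 fold change of the 31 collagen genes tested in the 3 comparisons of lines, with the groups the file names read; filled squares had an adjusted p under 0.05 and bars are the SE. Col4a6 lies at -1.22 in KO against WT, -2.55 in Rescue against KO and -3.77 in Rescue against WT.

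The rescue-named pair (labelled Rescue_TNF and KO_TNF) was then set against the KO-named pair (labelled WT_TNF and Rescue), the comparison that in the design tests the added PTBP1 cDNA. Of 31 collagen genes 2 were higher (6.5%), where 9.79% of all genes were, and 9 were lower (29.0%), where 10.6% of all were, with a median log2 difference of -0.15 against 0.01 over all genes. The KO-named libraries serve in this comparison and in that of KO with WT, so values are set side by side only.

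Lower were 4 fibrillar, 3 basement membrane and 2 other genes. Col3a1 differed by -1.81 ± 0.31 (edgeR adjusted p = 0.024), with the rescue-named pair at 106 and 283 TPM against 485 and 635 TPM in the KO-named pair. Col11a1 differed by -1.37 ± 0.27 (edgeR adjusted p = 0.0305), Col1a2 by -0.84 ± 0.17 (edgeR adjusted p = 0.0337) and Col5a2 by -0.64 ± 0.13 (edgeR adjusted p = 0.0364). Col8a1 differed by -0.80 ± 0.18 (edgeR adjusted p = 0.0392) and Col9a3 by -0.74 ± 0.17 (edgeR adjusted p = 0.0397; 0.0806 by DESeq2 and 0.0864 with the second quantification, where it was -0.46). Col1a1, at 2569 and 5843 TPM against 2822 and 4554 TPM, was not called.

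The basement membrane genes Col4a6, Col18a1 and Col4a5 were lower still in the rescue-named pair than in the KO-named pair. Col4a6 differed by -2.55 ± 0.13 (edgeR adjusted p = 0.0028), Col18a1 by -2.11 ± 0.11 (edgeR adjusted p = 0.0028) and Col4a5 by -1.30 ± 0.07 (edgeR adjusted p = 0.00356). For all 3 genes both rescue-named libraries lay below both KO-named libraries. The 2 genes that were higher were Col2a1 (1.37 ± 0.24, edgeR adjusted p = 0.0264) and Col27a1 (1.32 ± 0.16, edgeR adjusted p = 0.0124), both lower in the KO-named pair than in the WT-named pair. Col8a1 and Col11a1, lower in Rescue against KO, were likewise called the other way in KO against WT (1.14 and 0.94).

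Rescue against WT, the last comparison, gave 2 higher collagen genes of 31 (6.5%), where 12.5% of all genes were, and 6 lower (19.4%), where 12.1% of all were. The higher ones were Col4a1 (1.33 ± 0.19, edgeR adjusted p = 0.012) and Col4a2 (1.22 ± 0.24, edgeR adjusted p = 0.0259). The lower ones with the smallest adjusted p were Col4a6 (-3.77 ± 0.13, edgeR adjusted p = 0.00103), Col18a1 (-2.79 ± 0.11, edgeR adjusted p = 0.00103) and Col4a5 (-1.60 ± 0.08, edgeR adjusted p = 0.00165). Col14a1 (-4.14 ± 0.47, edgeR adjusted p = 0.00842), Col2a1 (-1.28 ± 0.21, edgeR adjusted p = 0.0178) and Col9a3 (-0.94 ± 0.16, edgeR adjusted p = 0.0201) were lower as well. Basement membrane genes thus had 5 calls of 7 here, fibrillar genes 1 of 10 and the others 2 of 14.

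In both comparisons that involve the rescue-named pair, 0 collagen genes and 0 of all genes were called without the library labelled KO_TNF or the one labelled Rescue_TNF. For Rescue against WT, 5 calls were made without the library labelled KO, 15 without the one labelled Rescue and 17 without the one labelled WT_TNF.

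Ratios of TPM between chains are given without a test. The Col1a1 to Col1a2 ratio was 1.08 with TNF and 1.15 without in the KO-named pair, 2.05 and 1.98 in the rescue-named pair, and 1.85 and 1.85 in the WT-named pair. Type I collagen contains more of the Col1a1 chain than of the Col1a2 chain. Both KO-named libraries were thus below the other 4. Col5a1 to Col5a2 was 0.65 and 0.57 in the KO-named pair, 1.06 and 0.97 in the rescue-named pair, and 0.88 and 0.95 in the WT-named pair, again with both KO-named libraries lowest. The Col3a1 to Col1a1 ratio was 0.17 and 0.14 in the KO-named pair, 0.04 and 0.05 in the rescue-named pair, and 0.06 and 0.10 in the WT-named pair.

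Among type IV chains, Col4a1 to Col4a5 was 5.68 and 4.498 in the KO-named pair, 12.2 and 13.6 in the rescue-named pair, and 1.55 and 1.83 in the WT-named pair, so the 3 pairs did not overlap. Col4a5 to Col4a6 was 8.34 and 9.06, 19.0 and 22.4, and 4.54 and 4.69 in the same order, also without overlap. Col4a1 to Col4a2 stayed between 1.23 and 1.75 in all 6 libraries, and Col6a1 to Col6a2 between 1.74 and 2.73. Col8a2, the partner chain of Col8a1, was at most 0.44 TPM.

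**Figure D4:**
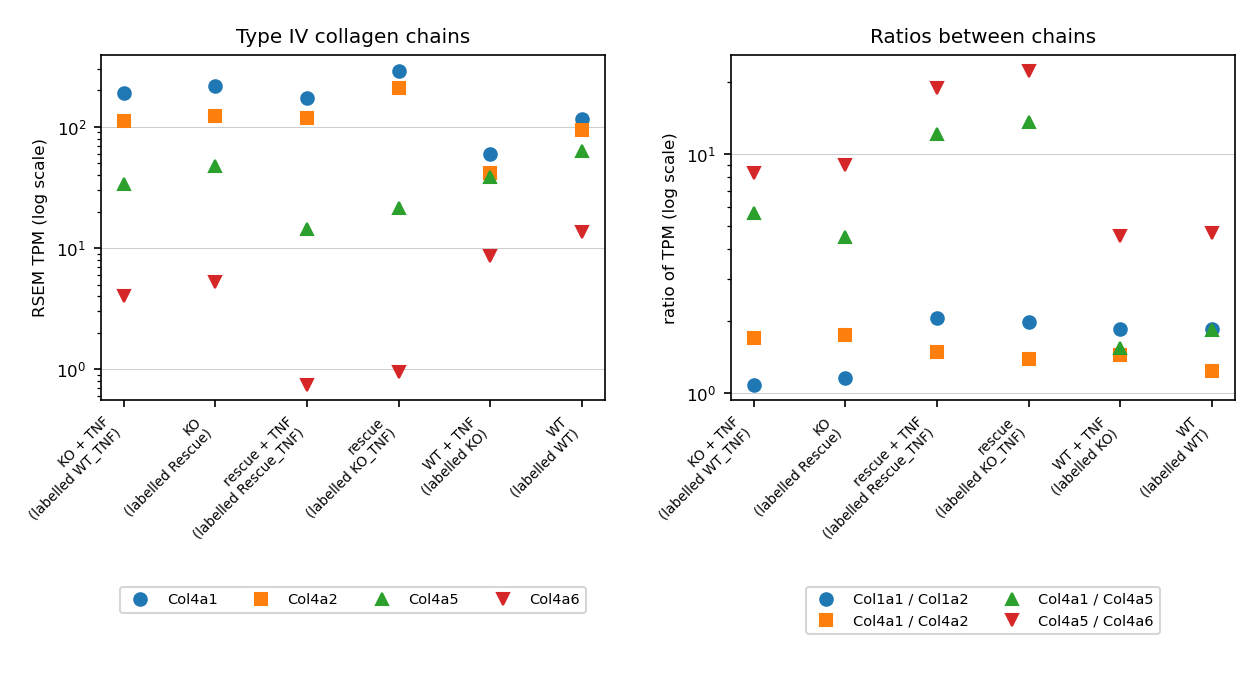
TPM (log scale) of 4 type IV chains (left) and ratios of TPM between chains (right) in the 6 libraries, 1 point each. The Col4a1 to Col4a5 ratio is 12.2 and 13.6 in the rescue-named pair and 1.55 and 1.83 in the WT-named pair, and the Col1a1 to Col1a2 ratio is lowest in the KO-named pair.

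Genes that make, cut, cross-link and bind collagen were read from a list of 41, of which 37 were tested. The calls given here are with the file names' groups, which Ptbp2 and Ccl2 followed. With the labels' groups 0 of the 37 were called in any of the 4 comparisons, where 0.0% of all genes were. TNF went with 14 falls (37.8%), where 10.8% of all genes fell, and 3 rises (8.1%), where 11.2% of all genes rose. The median log2 change was -0.28, against -0.01 over all genes. Itga11 (-2.24), Itga1 (-1.51), both collagen-binding integrin chains, P3h2 (-1.72) and P4ha3 (-0.69), both prolyl hydroxylases, fell, as did the cross-linking enzyme Lox (-0.99) and the collagen chaperone Serpinh1 (-0.51). Itga2 (3.89), the alpha chain of another collagen-binding integrin, and Adamts14 (1.19), a protease that trims the ends of procollagen, rose. Lox was at 353 TPM with TNF and 687 TPM without in the KO-named pair, 429 and 853 TPM in the rescue-named pair, and 704 and 1736 TPM in the WT-named pair. Itga2 was at 0.48 and 0.14 TPM, 3.41 and 0.11 TPM, and 2.21 and 0.14 TPM in the same order. Adjusted p of these 8 genes in edgeR lay between 0.00838 and 0.0449.

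Between lines the same list had 6 genes higher (16.2%) in KO against WT, where 16.8% of all genes were, and 12 lower (32.4%), where 16.2% of all were. The share higher was thus near that of all genes. Higher were Pcolce2 (1.54), which enhances procollagen processing, P4ha3 (1.27) and Itga1 (0.86), and lower were Itga11 (-3.06), the lysyl oxidase relative Loxl2 (-2.76), P3h3 (-1.45), Lox (-1.16) and Adamts14 (-0.94). Rescue against KO had 4 higher (10.8%), where 9.79% of all genes were, and 9 lower (24.3%), where 10.6% of all were, with Adamts14 (1.05), P3h3 (0.70) and P4ha2 (0.69) higher and Loxl2 (-2.83), P4ha3 (-2.31), P3h2 (-1.42), Plod1 (-0.58) and Itgb1 (-0.57) lower. Rescue against WT had 1 higher (2.7%, Pcolce2, 1.54), where 12.5% of all genes were, and 10 lower (27%), where 12.1% of all were, led by Loxl2 (-5.58), Itga11 (-3.52), P3h2 (-1.45), P4ha3 (-1.04), Lox (-0.96), P3h3 (-0.76) and Loxl4 (-0.59). Loxl2 was at 1.25 and 0.77 TPM in the rescue-named pair, 4.13 and 10.0 TPM in the KO-named pair, and 41.8 and 50 TPM in the WT-named pair, with no overlap among pairs.

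Since Ptbp1 acts on splicing, collagen splice sites were read from the deposited psi values, the share of reads that include a node (a stretch between neighbouring splice sites). Of 2290 collagen nodes, 810 had at least 20 reads in every library, and 21 of these (2.59%) in 6 genes spanned at least 20 percentage points of psi over the 6 libraries. The share among nodes of all genes was not counted, so 2.59% cannot be called high or low. Of 734 cassette exon nodes read, 706 had a psi of at least 95% in every library. Of the 21 nodes, 12 were start or end nodes (6 and 6), 6 were cassette exons, and 1 each was an alternative donor, a retained intron and an alternative first exon. Start or end nodes of Col6a3, Col11a1 and Col18a1 whose psi values mirror each other were counted separately, so the 21 are not independent. The cassette exons lay in Col6a3, Col16a1 and Col4a5. No test is given, and the intervals are those the authors deposited, whose level is not given in the sources used here.

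In Col6a3 the large early exons each encode a von Willebrand factor A domain. The larger of its alternative exons, at chr1:90827860-90828477 had a psi of 46.9% with TNF and 48.5% without in the KO-named pair, 25.4% and 23.8% in the rescue-named pair, and 27.5% and 45.6% in the WT-named pair. The deposited intervals of the rescue-named libraries (19.2 to 33.0% and 19.8 to 28.5%) lay below those of the KO-named ones (42.9 to 50.8% and 44.3 to 52.6%). A 600-base exon at chr1:90813215-90813814 was at 57.2% and 48.9%, 65.8% and 48.6%, and 46.0% and 42.9% in the same order, higher with TNF in each pair, with overlapping intervals in the WT-named pair.

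Short exons of Col16a1 and Col4a5 are printed because they are the short cassette exons that passed this range. They are read from GENCODE vM21 transcripts (GRCm38), the exon in capitals and 9 bases of each neighbouring exon in lower case, and each length is a multiple of 3.
Col16a1 48-base exon, chr4:130073069-130073116, plus strand: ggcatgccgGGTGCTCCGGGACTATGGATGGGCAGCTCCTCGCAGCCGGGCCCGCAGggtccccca
Col16a1 45-base exon, chr4:130081435-130081479, plus strand: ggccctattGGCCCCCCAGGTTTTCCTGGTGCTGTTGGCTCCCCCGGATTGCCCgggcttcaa
Col4a5 first 9-base exon, chrX:141658532-141658540, plus strand: ggagaccagGTCCTCCAGgttttcaag
Col4a5 second 9-base exon, chrX:141664676-141664684, plus strand: gtcctccagGTTTTCAAGgtccaccag
The 9-base exons are neighbours, so each is the flank of the other in the transcript shown.

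The 48-base exon of Col16a1 was included at 19.2% with TNF and 12.8% without in the KO-named pair, 42.2% and 35.8% in the rescue-named pair, and 26.4% and 18.4% in the WT-named pair, on 248 to 438 reads. It was highest in both rescue-named libraries and higher with TNF in each pair, but the deposited intervals with and without TNF overlapped in the KO- and rescue-named pairs. The 45-base exon was at 96.3% and 97.4%, 75.4% and 84.8%, and 86.5% and 93.5% in the same order, on 500 to 860 reads, and was lower with TNF in each pair, with overlapping intervals in the KO-named pair. The first 9-base exon of Col4a5 was at 52.3% and 54.1%, 64.8% and 55.3%, and 77.4% and 57.0%, and the second at 75.2% and 68.6%, 68.1% and 64.1%, and 79.8% and 57.1%. These rest on 51 to 209 reads, and outside the WT-named pair the deposited intervals with and without TNF overlapped.

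Col18a1 has 3 annotated first exons that were counted, an analysis added after the data had been seen. The upstream one (chr10:77166439-77166548) lies farthest from the gene's end, the middle one (chr10:77112218-77113946) follows, and the inner one starts at chr10:77089200-77089428. In the KO-named pair, reads across junctions from the upstream exon were 60 of 92 with TNF and 31 of 88 without, or 65.2% (exact 95% binomial interval 54.6 to 74.9%) and 35.2% (25.3 to 46.1%). The rescue-named pair had 3 of 69 and 1 of 43, or 4.35% (0.91 to 12.2%) and 2.33% (0.06 to 12.3%). The WT-named pair had 131 of 285 and 57 of 114, or 46.0% (40.1 to 51.9%) and 50% (40.5 to 59.5%). The rescue-named libraries were thus the lowest, and their intervals did not overlap those of the other 4. The inner exon was at 66.7% (54.3 to 77.6%) with TNF and 30.2% (17.2 to 46.1%) without in the rescue-named pair, against 16.3% and 15.9% in the KO-named pair and 34.0% and 14.0% in the WT-named pair. These shares are of the reads counted at junctions from the 3 exons. By the deposited psi, on 41 to 627 reads, the inner exon was at 54.1% with TNF and 31.7% without in the rescue-named pair. It was at 5.26% and 7.22% in the KO-named pair and 15.5% and 6.45% in the WT-named pair, below the junction shares there. The level in those pairs thus depends on which reads are counted. Intervals cover counting error only.

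**Figure D5:**
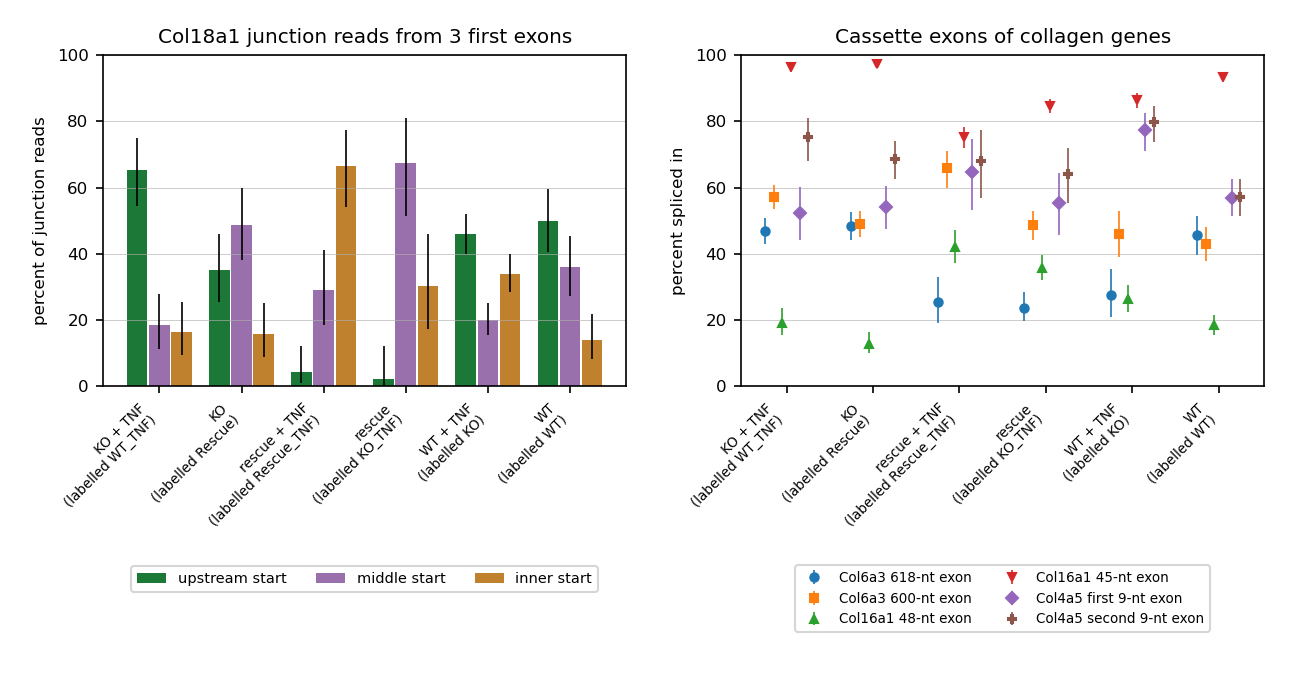
Left, share of each of 3 first exons in the Col18a1 junction reads counted from them, in percent, with exact 95% binomial intervals. Right, percent spliced in of 6 collagen cassette exons with the deposited intervals, in the 6 libraries. The upstream Col18a1 start is at 4.35% and 2.33% in the rescue-named pair and at 35.2% or more elsewhere.

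Start and end nodes varied too. The first Col11a1 start node was at 5.95% with TNF and 28.4% without in the KO-named pair, 68.2% and 21.5% in the rescue-named pair, and 45.7% and 21.1% in the WT-named pair, on 25 to 187 reads. A Col6a3 end node (217 bases) was at 0.0% and 12.0%, 19.5% and 21.8%, and 23.8% and 12.0% in the same order, on 384 to 1790 reads. Neither ordered the libraries by treatment alone.

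The 11 genes that did not pass the count filter were Col4a4, Col6a5, Col6a6, Col8a2, Col9a1, Col9a2, Col13a1, Col19a1, Col24a1, Col25a1 and Col28a1, all below 1 TPM in every library. Members of type IX, the beaded Col6a5 and Col6a6 and the transmembrane Col13a1 and Col25a1 are among them, and no direction is given for any.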

How the data were processed

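RNA of 6 libraries, 1 per group, was analysed. Per the submitters' processing notes RSEM was used; its version, the aligner, the build and the strand setting are not given in the sources used here. The authors deposited expected counts with TPM for genes (for transcripts, summed here by gene, in the library labelled Rescue), a second quantification with estimated counts and TPM per gene, junction read counts, and psi as a fraction with its reads, per the file headers. A row without a gene name (0.0735% to 0.0927% of expected counts) was dropped. The edges of collagen cassette nodes met exons of GENCODE vM21 (100.0% of nodes), hence GRCm38 coordinates.

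Expected counts were rounded and tested with edgeR 4.0.16 (R 4.3.3), TMM factors, filterByExpr and the quasi-likelihood test of line plus TNF over all 6 libraries (2 residual degrees of freedom), with Benjamini-Hochberg adjustment over 12728 genes and a threshold of 0.05. The labels' groups were the main grouping and the file names' groups the second. Where nothing says that samples came from separate cultures, p-values measure only the spread between these samples. SE is the log2 change divided by the root of F and restates the test. Single-pair ratios are of CPM with a prior count of 2. Alternatives were DESeq2 1.42.0, its size factors, no filter, the second quantification, leaving out each library, a prior count of 0.5 and 50 reads for psi. The fit was also run on simulated counts with a TNF change shared by all lines and no differences between lines. Those counts lack the unevenness from line to line that is the error here, so the run cannot show how reliable the calls are.

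Genes at 10 TPM or more in any library were given with all values, called genes at 1 TPM or more with their change, and of the list of 41 up to 8 called genes per comparison. The members and lists were chosen with earlier results of these data known.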

Additional observations from a re-analysis of the deposited data

Results flagged for a closer look

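Opposite TNF ratios of at least 2-fold in different lines were seen for 1 collagen gene with the file names' pairs and for 9 with the labels' pairs. The share of all genes with such ratios was not counted, so these counts cannot be called high or low. With 1 library per line and treatment the differences were not tested.

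With the file names' pairs, Col23a1, a transmembrane collagen at 0.20 to 1.59 TPM, had a log2 ratio with TNF over without of 1.12 in the rescue-named pair and -1.21 in the WT-named pair, a difference of 2.33. The KO-named pair was at 0.43.

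With the labels' pairs, the pair labelled KO lay above the pair labelled Rescue by 4.86 for Col11a1, 2.62 for Col12a1 and 2.42 for Col6a2, and above the pair labelled WT by 3.7999 for Col15a1. The pair labelled Rescue lay above the pair labelled KO by 6.51 for Col22a1 and 4.98 for Col6a4, and above the pair labelled WT by 4.21 for Col2a1 and 2.95 for Col27a1. The pair labelled WT lay above the pair labelled Rescue by 2.28 for Col8a1. All values are differences of log2 ratios. The labels of these pairs are the ones that Ptbp2 and Ccl2 went against.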

How the results depend on the processing

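With the file names' groups, collagen calls for TNF numbered 15 to 18 under the alternatives that keep all libraries (16 as reported), KO against WT 11 to 15 (12), Rescue against KO 10 to 11 (11) and Rescue against WT 8 to 9 (8). Leaving out each library in turn, they ranged from 0 to 25, 5 to 16, 0 to 13 and 0 to 17. With the labels' groups they were 0 throughout, leaving out libraries included (0 to 0), except 2 for TNF by DESeq2. The 47 single-gene calls kept their direction in all 469 values computed (Col5a1 has none in the second quantification), and 42 lost the call without the library labelled KO_TNF and 42 without the one labelled Rescue_TNF. The fits without the library labelled KO_TNF or Rescue_TNF take their error from the same KO- and WT-named pairs and are not separate checks. Counts of 2-fold ratios were within 1.5 times at the other prior count. The collagen sum in the second quantification (40 members) was 5852 and 8501 TPM in the KO-named pair, with and without TNF, 3964 and 8345 in the rescue-named pair, and 4692 and 8824 in the WT-named pair. Its fibrillar share was 76.8% and 78.7%, 69.8% and 75.7%, and 77.0% and 81.5%. That sum leaves out Col6a3 as well, and its fibrillar part lacks Col5a1, so the shares of the 2 quantifications are not of the same genes. Requiring 50 reads left 11 splicing nodes in place of 21. No paired analysis was possible by replicate number because each group has 1 library, and the reported model already holds line as a term. Col14a1, Col22a1, Col4a6 and Col2a1 are limited by low levels, and the absence of replicates limits every comparison.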
